A study of Rattus norvegicus with 17 samples.

Results

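The miR-379 to miR-410 cluster was examined in the rat ventral prostate (VP), a lobe of the gland that is still immature at weaning. The cluster consists of the miRNAs of the distal part of the imprinted Dlk1-Dio3 domain, and its members were taken by name from the list of rat miRNAs in the count tables. This gave 68 members from 36 hairpins of 761 rat miRNA entries. Male Sprague Dawley offspring came from dams fed a diet with 17% protein (CTR) or with 6% protein (GLLP, gestational and lactational low protein) through pregnancy and suckling. The VP was collected at postnatal day (PND) 21 from 4 CTR and 4 GLLP males and at PND 540 from 5 CTR and 4 GLLP males. Litters were the unit of sampling, with 1 male taken from each litter at an age.

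Imprinted genes are transcribed from the allele of a single parent. In mammals the miRNAs of this domain are processed from long noncoding transcripts of the maternal allele, and they are known for high levels in the embryo, the placenta and the brain and for low levels in most adult tissues. A mature miRNA pairs with its targets mainly through its seed, bases 2 to 8 from the 5′ end, so members with the same seed can recognise overlapping sets of mRNAs. In mice the cluster is known for a role in metabolic adaptation of the newborn.

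Of the 68 members, 67 were matched to mature sequences of RefSeq (build GRCr8), and rno-miR-679 was not matched. In that build the matched members lie in 36.4 kb of chromosome 6, between positions 134543460 and 134579828. Of 35 matched hairpins, 33 are on the plus strand and 2 on the minus strand. The other miRNAs of the domain lie 188.9 kb upstream, near Meg3 and Rtl1. The mature sequences of the 5 members with the highest mean level are shown because they carry most of the reads of the cluster, with the seed in capitals.
rno-miR-411-5p: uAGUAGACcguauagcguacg
rno-miR-541-5p: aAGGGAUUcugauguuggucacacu
rno-miR-410-3p: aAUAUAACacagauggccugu
rno-miR-379-5p: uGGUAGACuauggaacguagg
rno-miR-300-3p: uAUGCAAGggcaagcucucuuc

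The seeds of these 5 members all differ, and the seeds of rno-miR-411-5p and rno-miR-379-5p are AGUAGAC and GGUAGAC. Among the matched members, 5 seeds were shared by more than 1 mature miRNA. The seed AUACAAG is common to 2 members from different hairpins that were read at PND 21, and it is shown with the sequence of rno-miR-381-3p.
rno-miR-381-3p: uAUACAAGggcaagcucu
rno-miR-539-3p: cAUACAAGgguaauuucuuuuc
Over the 18 bases that can be compared, rno-miR-381-3p and rno-miR-300-3p differ at 1 base, so the division of reads between them depends on how mismatched reads were counted. The pair rno-miR-376c-5p and rno-miR-376b-5p also differs at 1 base of 21, as does the pair rno-miR-299a-5p and rno-miR-299b-5p over 20 bases.

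In 8 places a mature miRNA of the plus strand overlaps a mature miRNA of the minus strand, and 1 of these pairs affected a member among those with the highest levels. The members of that pair are complementary over 20 bases.
rno-miR-409a-3p: aAUGUUGCucggugaacccc
rno-miR-409b: aGGGGUUCaccgagcaacauucg
All 5478 reads at this place were listed under rno-miR-409b and 0 under rno-miR-409a-3p. Whether reads were counted by strand is not given in the sources used here, so reads of the members of such a pair cannot be told apart. The entries rno-miR-539-5p, rno-miR-382-3p and rno-miR-369-5p were likewise listed at 0, as were the miRNAs of the minus strand that overlap them.

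The libraries held between 6262564 and 28642435 counts on rat miRNAs. Molecular identifiers were not used, and intervals computed from the counts therefore cover counting error only. At PND 540, 3 libraries (CTR replicate 1 and GLLP replicates 1 and 2) stood apart, with between 2.26% and 2.65% of their counts on snoRNA and snRNA, against at most 1.24% in the other libraries. The labels number the libraries, and all PND 21 libraries fall between 13 and 20 while those of PND 540 fall between 3 and 7 or between 21 and 24, so age and set of library numbers cannot be told apart.

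The cluster took a far larger part of the miRNA reads at PND 21 than at PND 540 in both diet groups. In the CTR group at PND 21 it took 0.357%, 0.539%, 0.550% and 0.516% of the miRNA counts of replicates 1 to 4. In the GLLP group at PND 21 the shares were 0.708%, 0.886%, 0.768% and 0.899%. Every GLLP library thus lay above every CTR library at this age. At PND 540 the shares were 0.00875%, 0.00473%, 0.00736%, 0.00879% and 0.00687% in the CTR group. They were 0.00610%, 0.00475%, 0.00857% and 0.00911% in the GLLP group, and the diet groups overlapped. The 95% Wilson interval ran from 0.353% to 0.361% in the PND 21 library with the lowest share and from 0.00446% to 0.00501% in that of PND 540. Over both diets, the cluster amounted to 6529 ± 1930 reads per 1000000 miRNA counts at PND 21 (SD, n = 8) and to 72.2 ± 17.3 at PND 540 (SD, n = 9), a ratio of 90.4. After TMM scaling, which sets libraries to a common level of most miRNAs, the same ratio was 28.8. As shares of miRNA counts, the 3 libraries of high snoRNA share held between 0.00475% and 0.00875% and lay inside the range of the other 6. After TMM scaling they were the 3 lowest, at 102, 65.6 and 52.7 counts per 1000000, against 112 to 178 in the other 6. In tissue that holds several cell types, fewer cells of a type and less RNA per cell cannot be told apart.

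**Figure D1:**
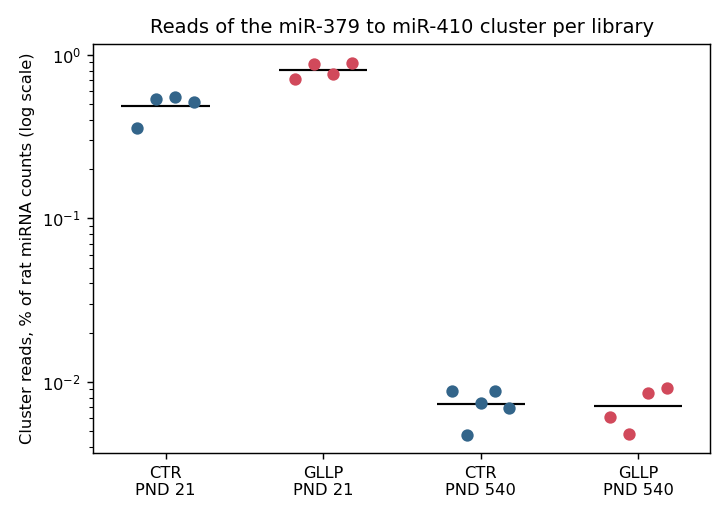
Reads of the 68 cluster members as a percentage of the rat miRNA counts of each library, on a log axis, by diet and age. Points are libraries (4, 4, 5 and 4) and lines are group means, with PND 21 libraries between 0.357% and 0.899% and PND 540 libraries between 0.00473% and 0.00911%.

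Of the 68 members, 63 had at least 1 read in some library. A PND 21 library held reads of between 54 and 59 members, and a PND 540 library held reads of between 16 and 36. Over all 761 rat miRNA entries the number read also fell, from between 558 and 590 at PND 21 to between 402 and 521 at PND 540. Thinned to the depth of the shallowest library, the expected numbers were between 53 and 57.5 at PND 21 and between 15.9 and 27.7 at PND 540. In all 8 libraries of PND 21, 50 members were read. Only 8 members were read in all 9 libraries of PND 540. A further 14 members had reads at PND 21 and none in any library of PND 540. The counts of 50, 8 and 14 are given for the members only, without a share over all miRNAs. The member with the most reads, rno-miR-411-5p, ranked between 28 and 42 among all rat miRNAs at PND 21. At PND 540 the best ranked member of a library held a place between 120 and 184.

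A small number of members made up most of the cluster reads. The 3 members with the highest mean level, rno-miR-411-5p, rno-miR-541-5p and rno-miR-410-3p, took between 78.9% and 84.5% of the cluster reads at PND 21 and between 52.9% and 81.3% at PND 540. The share of rno-miR-411-5p alone was between 43.0% and 65.6% at PND 21. It was between 16.2% and 19.4% in the 3 PND 540 libraries of high snoRNA share and between 31.6% and 55.7% in the other 6. Of the 32 hairpins with both arms listed, 30 had at least 100 reads at PND 21, and the 3p arm was the more abundant in 21 of them. In 19 of the 30 hairpins the minor arm took less than 10% of the reads. These counts include miR-409a, miR-382, miR-539 and miR-369, each with an arm listed at 0 that overlaps a miRNA of the minus strand. Whether those arms were truly absent cannot be told from the counts. For miR-411 the 5p arm had 299839 reads and the 3p arm 1511 at PND 21.

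**Figure D2:**
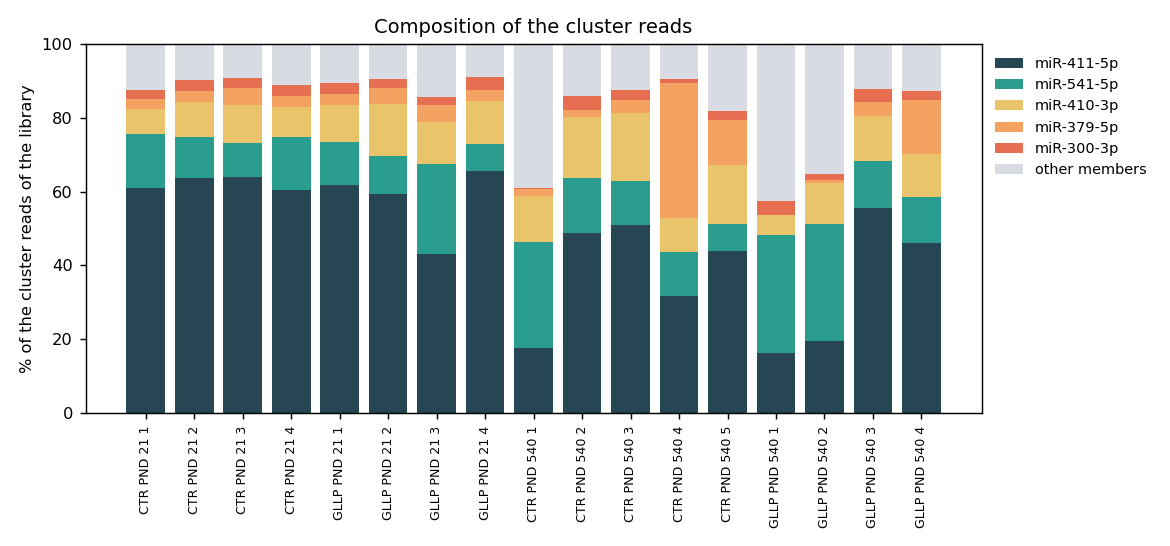
Division of the cluster reads of each library among the 5 members with the highest mean level and all other members, in percent. The share of miR-411-5p is lowest in CTR replicate 1 and GLLP replicates 1 and 2 of PND 540, at 16.2% to 19.4%, and miR-379-5p reaches 36.5% in CTR replicate 4 of PND 540.

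The difference between ages was tested first for members with enough reads on both sides. With a mean of at least 10 counts at each age, 11 members could be tested and 10 of them were lower at PND 540 (edgeR quasi-likelihood test, adjusted p under 0.05), where 16% of the 349 miRNAs tested in this way were lower. These 10 members were rno-miR-541-5p, rno-miR-410-3p, rno-miR-411-5p, rno-miR-300-3p, rno-miR-379-3p, rno-miR-134-5p, rno-miR-409b, rno-miR-485-3p, rno-miR-323-3p and rno-miR-379-5p. The exception was rno-miR-667-3p. This choice of miRNAs was made after the data were seen.

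With the default filter on low counts, 44 members were tested and 43 were lower, where 24% of all 467 tested miRNAs were lower. The background depended on the scaling: 112 of the 467 miRNAs were lower and 140 higher with TMM, 138 and 102 with RLE size factors, 153 and 70 with TMM over all small RNA species, and 254 and 27 with no scaling factor, while 43 of the 44 members were lower with each of these. This count is a description, since 44 members had at least 10 counts in 4 or more libraries of PND 21 and only 11 in 4 or more libraries of PND 540, so that most members passed the filter through the age at which they were high. The median log2 fold change of the 44 members was -4.69, and that of all tested miRNAs was 0.27. With the member that had no reads at PND 540 set at its bound, the median of the members was -4.62. The remaining 24 members had at most 17 counts in any library. Among the 50 miRNAs with the lowest fold changes, 28 were members and 16 belonged to the other miRNAs of the domain. Of the 467 tested miRNAs, 44 were members and 21 belonged to the other miRNAs of the domain. This ranking is a description too, since 12 of the tested members had at most 3 reads in each library of PND 540. Counted without a test, 42 of the 68 members had every PND 21 library above every PND 540 library in CPM (counts scaled by TMM to a common library size). This was so for 39 of the 44 tested members and for 16.3% of all tested miRNAs.

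**Figure D3:**
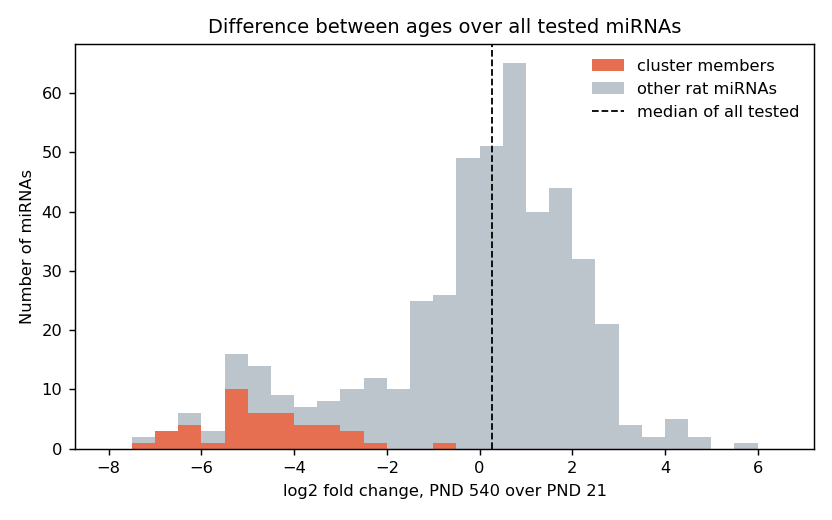
Number of miRNAs by log2 fold change of PND 540 over PND 21 in bins of 0.5, for 44 tested cluster members (orange) and the other tested rat miRNAs (grey), 467 in all. The members lie between -7.50 and -0.61, and the dashed line marks the median of all tested miRNAs at 0.27.

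The most abundant member, rno-miR-411-5p, stood at 1571, 1870, 2091 and 1618 CPM in the CTR group and at 2135, 3360, 1798 and 2868 CPM in the GLLP group at PND 21. At PND 540 it stood at 18, 54.6, 85.5, 56.4 and 76.6 CPM in the CTR group and at 10.7, 10.2, 73.9 and 69.6 CPM in the GLLP group. The ages did not overlap, and the 3 lowest libraries were those of high snoRNA share. Its level was 43.6-fold lower at PND 540 (log2 fold change -5.45, SE 0.48, adjusted p 5.52e-08, edgeR). Without those 3 libraries the log2 fold change was -5.34.

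The smallest p among the members for the difference between ages was that of rno-miR-541-5p, which stood at 375, 324, 304 and 383 CPM in the CTR group and at 407, 571, 1015 and 317 CPM in the GLLP group at PND 21. At PND 540 it stood at 29.5, 16.6, 20.3, 21.3 and 12.6 CPM in the CTR group and at 21.0, 16.7, 16.8 and 19 CPM in the GLLP group. The PND 540 libraries were close to each other, and the highest value of all was that of the shallowest library, GLLP replicate 3 of PND 21. The level fell 23.3-fold (log2 fold change -4.54, SE 0.30, adjusted p 1.99e-09, edgeR).

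The last miRNA of the cluster, rno-miR-410-3p, stood at 177, 280, 340 and 219 CPM in the CTR group and at 347, 806, 484 and 506 CPM in the GLLP group at PND 21. At PND 540 it stood at 12.6, 18.4, 31.0, 16.6 and 28.1 CPM in the CTR group and at 3.55, 5.95, 16.3 and 17.6 CPM in the GLLP group. At PND 21 the GLLP libraries all lay above the CTR libraries, whereas at PND 540 the diet groups overlapped, with the 2 lowest values in GLLP libraries of high snoRNA share. The level fell 24.3-fold with age (log2 fold change -4.60, SE 0.38, adjusted p 2.75e-08, edgeR).

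The first miRNA of the cluster, rno-miR-379-5p, varied most among the abundant members at PND 540. It stood at 65.3, 83.0, 144 and 77.9 CPM in the CTR group and at 103, 245, 191 and 130 CPM in the GLLP group at PND 21. At PND 540 it stood at 2.20, 2.16, 6.07, 65.0 and 21.3 CPM in the CTR group and at 0, 0.382, 5.05 and 22.3 CPM in the GLLP group. The highest PND 540 library, CTR replicate 4, lay just under the lowest PND 21 library. Libraries numbered 3 to 7 had at most 6.07 CPM, and those numbered 21 to 24 had between 5.05 and 65.0 CPM. The log2 fold change between ages was -3.44 (SE 0.85, adjusted p 0.00195, edgeR), and it was -7.42 with libraries 3 to 7 alone as the PND 540 group and -2.61 with libraries 21 to 24 alone. The other arm of the same hairpin, rno-miR-379-3p, did not follow this division at PND 540, with at most 2.67 CPM in libraries 3 to 7 and at most 0.988 CPM in libraries 21 to 24, and its log2 fold change between ages was -4.48 (SE 0.52).

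The other members with high levels also fell. The level of rno-miR-300-3p was between 65.5 and 158 CPM at PND 21, with a median of 91.9, and between 0.286 and 4.72 CPM at PND 540, with a median of 3.71. Its log2 fold change was -5.09 (SE 0.47). The level of rno-miR-134-5p, which is known in neurons as a regulator of dendritic spines, was between 32.2 and 66.8 CPM at PND 21 and between 1.08 and 8.53 CPM at PND 540, with medians of 47.3 and 2.01 CPM. Its log2 fold change was -3.95 (SE 0.46). For rno-miR-409b the range was 24.7 to 79.4 CPM at PND 21 and 2.42 to 10.9 CPM at PND 540, and the log2 fold change of -2.93 (SE 0.37) was the smallest decrease among the 10 members with the highest levels. For rno-miR-409a-5p the range was 19.2 to 83.8 CPM at PND 21 and 0 to 1.53 CPM at PND 540, with a log2 fold change of -6.00 (SE 0.72). For rno-miR-496-3p the medians were 21.2 and 0.790 CPM, with a log2 fold change of -5.20 (SE 0.54). For rno-miR-382-5p they were 23 and 0.869 CPM, with a log2 fold change of -4.64 (SE 0.79). The adjusted p of rno-miR-382-5p, 6.28e-05 (edgeR), was the largest of these 6. However, rno-miR-409a-5p, rno-miR-496-3p and rno-miR-382-5p had only 44, 68 and 65 reads over all libraries of PND 540. They lacked a mean of 10 counts at that age and passed the filter through PND 21, so their values are descriptions.

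Several members with small p values were close to 0 at PND 540, where the fitted fold change rests on single reads. The level of rno-miR-487b-3p was between 10.2 and 24.9 CPM at PND 21 and between 0 and 1.18 CPM at PND 540 (log2 fold change -5.17, SE 0.58). In all, 5 tested members had 1 to 3 reads over the 9 libraries of PND 540. Of these, rno-miR-299a-5p had 792 reads at PND 21 and 3 reads at PND 540, a ratio of 160 after scaling (exact 95% counting interval 54.7 to 780). The counts of rno-miR-377-3p were 440 and 1, with an interval of the ratio from 47.8 to 10588. No read of rno-miR-412-3p was found at PND 540, and with 3 counts in each library as the floor it was at least 3.30-fold lower there.

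**Figure D4:**
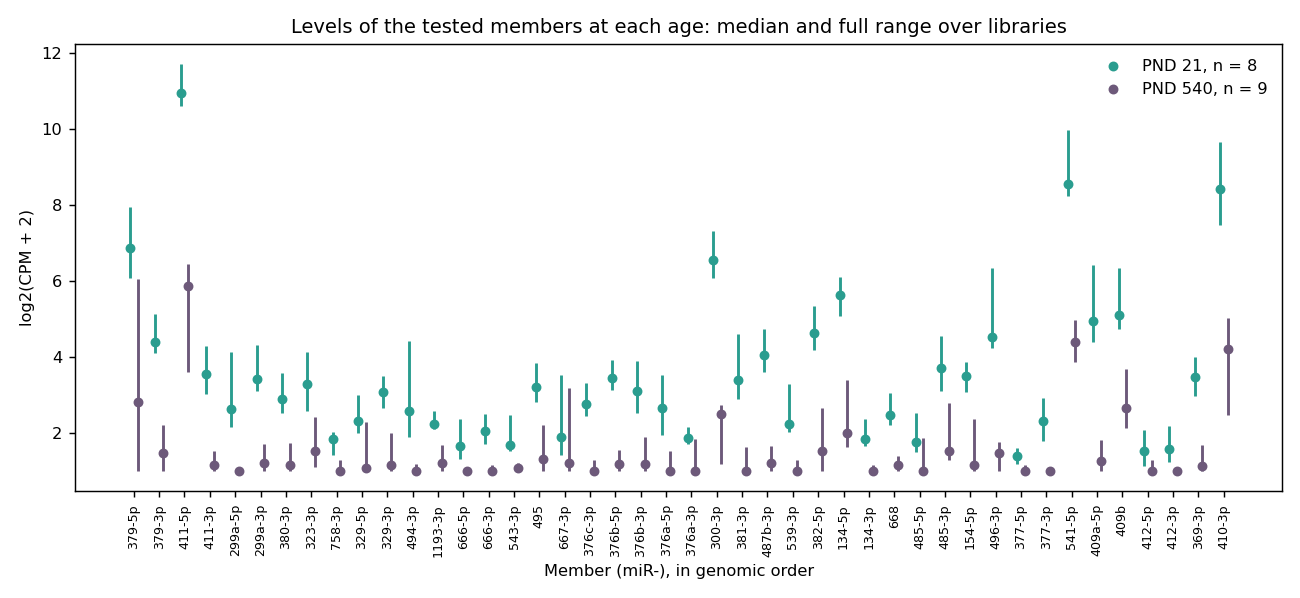
Levels of the 44 tested members, as log2 of CPM plus 2, in genomic order from miR-379 to miR-410. Points are medians and bars the full range over 8 libraries of PND 21 (green) and 9 of PND 540 (purple), and the highest points at both ages are miR-411-5p, miR-541-5p and miR-410-3p.

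Of the 11 members with a mean of at least 10 counts at each age, 9 were lower at PND 540 in the CTR group alone. In the GLLP group alone 10 were lower, and both counts were taken from the fit with the default filter. Over all miRNAs of that fit, 18.4% were lower in the CTR group and 19.5% in the GLLP group. A share by diet over miRNAs with such a mean at each age is not given here. Over all tested members, with the same limit on what the count shows, 40 of the 44 members were lower in the CTR group, where 18.4% of all tested miRNAs were lower. In the GLLP group alone, 40 of 44 were lower, where 19.5% of all tested miRNAs were lower. In both groups 38 members passed, a count with the same limit and without a share of all miRNAs beside it. For rno-miR-379-5p the log2 fold change was -2.27 in the CTR group (adjusted p 0.099) and -4.61 in the GLLP group (adjusted p 0.0089, both edgeR). The member rno-miR-667-3p was the only tested member that did not pass over both diets (log2 fold change -0.61, SE 0.85, adjusted p 0.564, edgeR). Its PND 540 reads came almost wholly from the libraries of high snoRNA share, which had 74, 41 and 42 reads, while the other 6 had at most 4. Without these 3 libraries, 48 members were tested and all 48 were lower. With libraries 3 to 7 as the PND 540 group 46 of 48 members were lower, and with libraries 21 to 24 the number was 47 of 48. These counts are descriptions, since most members passed the filter through PND 21. The share of all miRNAs that were lower in these 3 settings is not given here.

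In the upstream part of the span, up to its midpoint, 24 tested members had a median log2 fold change between ages of -4.64, and in the downstream part 20 tested members had a median of -4.69. Across the 44 tested members, which share the same libraries, the rank correlation of the fold change with position was -0.08, with the G and C content of the mature sequence 0.24 and with mean level 0.09. Within groups at PND 21, the median correlation between 2 members over the 8 libraries was 0.42, and between 2 of all tested miRNAs 0.06. At PND 540, over 9 libraries and 8 members, these values were 0.10 and 0.02, and 53.6% of the pairs of members had a positive correlation, against 50.8% of all pairs.

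The other lists of miRNAs were fixed by name for comparison. The proximal miRNAs of the same domain, which lie upstream of the cluster, were first taken with a mean of at least 10 counts at each age, which 7 of 24 entries had, and all 7 were lower at PND 540. With the default filter 21 were tested and 21 were lower, with a median log2 fold change of -4.86, but as in the cluster many of these passed through their levels at PND 21. The most abundant of them, rno-miR-127-3p, which is transcribed antisense to Rtl1, was between 6696 and 15076 CPM at PND 21 and between 429 and 1444 CPM at PND 540 (log2 fold change -3.66, SE 0.35). For rno-miR-136-3p the log2 fold change was -4.66 and for rno-miR-341 it was -4.86. Of the miRNAs of other imprinted loci, 8 of 9 were tested with the default filter and 7 were lower, with a median of -3.49, while only 2 had a mean of at least 10 counts at each age and 1 of these was lower. In this list rno-miR-298-5p from the Gnas locus had a log2 fold change of -4.41, rno-miR-298-3p of -5.15, rno-miR-296-3p of -4.98 and rno-miR-296-5p of -2.58. For rno-miR-675-3p, a product of H19, it was -4.24, for rno-miR-335, from an intron of Mest, -2.74, and for rno-miR-483-5p, from an intron of Igf2, -2.66. The other arm, rno-miR-483-3p, did not pass (log2 fold change 0.06, SE 0.78), and rno-miR-675-5p was not tested.

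Markers of cell types also differed between ages, and for several lists the direction depended on the scaling. Over all tested miRNAs, 30.0% were higher at PND 540 with TMM. Of the list for fibroblasts and mesenchyme (miR-199a and miR-214), 2 of 3 tested miRNAs were lower at PND 540 and none was higher, and their summed level was between 2528 and 4346 CPM at PND 21 and between 901 and 1787 CPM at PND 540. Of the list for skeletal and cardiac muscle, 4 of 6 tested miRNAs were lower, and 2 of its 14 entries were at 0 in all PND 540 libraries. The other 2 tested miRNAs had log2 fold changes of 0.75 and 0.46 and did not pass. The summed levels overlapped, at 9.51 to 328 CPM at PND 21 (median 18.9) and 1.72 to 32.3 CPM at PND 540 (median 20.4). The highest PND 21 values were those of GLLP replicates 2 and 3, at 328 and 181 CPM, and the others were at most 20.7 CPM. Of 14 tested epithelial miRNAs (the miR-200 family, miR-205, miR-375 and the miR-183 group), 6 were higher and 1 was lower, and the summed level was between 28150 and 48771 CPM at PND 21 and between 55078 and 147659 CPM at PND 540. Without a scaling factor 7 of the 14 were lower and 0 higher, and the summed level was between 51741 and 78015 reads per 1000000 miRNA counts at PND 21 and between 27706 and 64760 at PND 540, so that the direction turned. Of 7 tested leukocyte miRNAs, 5 were higher, with summed levels of 207 to 283 CPM at PND 21 and of 662 to 1141 CPM at PND 540. Without a scaling factor 2 of the 7 were higher, and the ages overlapped, at 333 to 547 and 260.7 to 975 reads per 1000000 miRNA counts. In the erythroid list 1 of 4 was higher with TMM. Its summed level at PND 540 was 139498, 41240 and 71532 CPM in the 3 libraries of high snoRNA share and 40568 CPM in CTR replicate 5. The other PND 540 libraries had between 3519 and 5173 CPM, and those of PND 21 between 1719 and 6426 CPM. In the lists for smooth muscle, endothelium and nervous tissue 0 of 4, 0 of 2 and 0 of 4 passed with TMM, whereas without a scaling factor 4, 1 and 2 of them were lower. The part of these cell types in the decrease of the cluster was not tested.

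At PND 21 the question was whether the diet of the dam changed the cluster in the offspring at weaning. Most members had higher levels in the GLLP group, but with edgeR none passed the adjusted threshold. By sign, 42 of the 44 tested members had a log2 fold change above 0, where 49.2% of the 439 tested miRNAs did. The median over the members was 0.68 and that over all tested miRNAs was -0.02. With edgeR, 0 of 44 members had an adjusted p under 0.05, as did 0% of all miRNAs, and the lowest adjusted p among the members was 0.102. At an unadjusted p under 0.05, 27 members were higher (13.9% of all tested miRNAs) and 1 was lower (6.38% of all tested miRNAs). The criteria of the study were a log2 fold change beyond 0.4 either way, a base mean over 20 and an unadjusted p under 0.05. The study applied them to results of the DESeq package, and here they were applied to the edgeR fits. By these criteria 27 members were counted, 26 of them higher, where 18.9% of all tested miRNAs were counted. Without GLLP replicate 2 the criteria were met by 17 members, and in a fit of all 17 libraries by 2. Without CTR replicate 1, 18 members had an unadjusted p under 0.05. The shares of all miRNAs in these settings are not given here. With DESeq2 in place of edgeR, 8 members had an adjusted p under 0.05 and all 8 were higher, where 5.69% of all tested miRNAs passed.

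The groups did not overlap for 20 of the 44 tested members. In 19 of them the lowest GLLP value exceeded the highest CTR value, where this was so for 8.66% of all tested miRNAs. In 1, rno-miR-409a-5p, every GLLP library was below every CTR library, where this was so for 4.78% of all tested miRNAs.

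**Figure D5:**
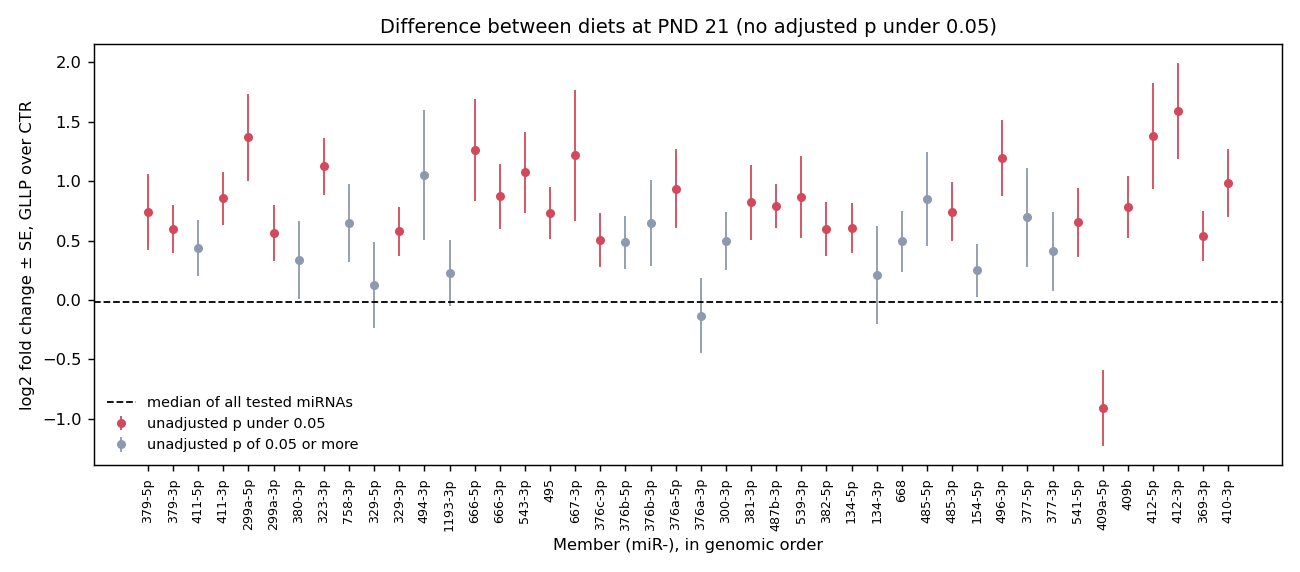
Log2 fold change of GLLP over CTR at PND 21 for the 44 tested members in genomic order, with SE (4 libraries in each group). Of the 44 points, 42 lie above 0, 28 have an unadjusted p under 0.05 (red) and the lowest point is miR-409a-5p at -0.91; the dashed line is the median of all tested miRNAs.

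The smallest p was that of rno-miR-323-3p, which stood at 4.0, 5.14, 5.79 and 6.28 CPM in the CTR group and at 9.34, 15.6, 14.5 and 9.70 CPM in the GLLP group. The fitted difference was 1.13 on the log2 scale (SE 0.24, adjusted p 0.102, edgeR). For rno-miR-487b-3p the values were 10.7, 12.8, 10.2 and 12.1 CPM in the CTR group and 16.6, 24.9, 22 and 19.7 CPM in the GLLP group, with a log2 fold change of 0.79 (SE 0.19, adjusted p 0.102, edgeR). For rno-miR-412-3p they were 0.429, 0.760, 0.818 and 0.364 CPM and 1.14, 1.96, 2.52 and 1.96 CPM, with a log2 fold change of 1.59 (SE 0.40, adjusted p 0.102, edgeR). None of these 3 overlapped between the groups, and an exact two-sided permutation test gave p 0.0286 for each, the smallest that 4 against 4 libraries allow. Groups that do not overlap always give this value. Since the 3 were chosen by their p in the same libraries, it is a description. With DESeq2 the adjusted p was 0.00343 for rno-miR-323-3p, 0.00447 for rno-miR-487b-3p and 0.0127 for rno-miR-412-3p.

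Among the abundant members, rno-miR-410-3p had a log2 fold change of 0.98 (SE 0.29), rno-miR-541-5p of 0.65 (SE 0.29) and rno-miR-411-5p of 0.44 (SE 0.24). The groups did not overlap for rno-miR-410-3p and overlapped for the other two. The entries listed for the overlapping hairpins of miR-409a and miR-409b, on opposite strands, differed in sign. Reads listed under rno-miR-409b cannot be told apart from reads of rno-miR-409a-3p, so this may not be a difference between strands. For rno-miR-409a-5p the log2 fold change was -0.91 (SE 0.32), with 83.8, 31.9, 29.9 and 30.6 CPM in the CTR group and 25.6, 28.1, 24.7 and 19.2 CPM in the GLLP group. For rno-miR-409b it was 0.79 (SE 0.26), with 24.7, 24.7, 31.1 and 27.6 CPM and 37.2, 47.2, 79.4 and 34 CPM. CTR replicate 1 lay far above all other libraries for rno-miR-409a-5p.

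The other miRNAs of the domain had the same sign at PND 21, with 21 of 21 tested above 0 and a median log2 fold change of 0.76, and of the other imprinted loci 8 of 8 were above 0, with a median of 0.70. No miRNA of either list passed the adjusted threshold. Values for rno-miR-127-3p, rno-miR-136-3p and rno-miR-341 were 0.23, 0.19 and 0.83. The cell type lists gave 0 calls at an adjusted p under 0.05. Some of them nevertheless differed in level between the diets. The summed epithelial list was between 37971 and 48771 CPM in the CTR group and between 28150 and 36479 CPM in the GLLP group, and the leukocyte list between 264 and 283 CPM and between 207 and 244 CPM. These groups did not overlap after TMM scaling, but per 1000000 miRNA counts they did, at 63846 to 78015 and 51741 to 69505 for the epithelial list and at 366 to 547 and 333 to 501 for the leukocyte list. The fibroblast list was between 2528 and 3514 CPM and between 3072 and 4346 CPM. The skeletal and cardiac muscle list was between 9.51 and 19.8 CPM and between 15.1 and 328 CPM, and the groups overlapped. Its high values were those of GLLP replicates 2 and 3, at 328 and 181 CPM, while replicates 1 and 4 had 20.7 and 15.1 CPM. For rno-miR-206-3p, a miRNA of skeletal muscle, the range was 0.286 to 4.44 CPM in the CTR group and 4.18 to 304 CPM in the GLLP group. In the lists for red blood cells, endothelium, smooth muscle and nervous tissue the groups overlapped. The part of these cells in the values of the cluster was not tested.

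At PND 540 the members did not separate the diets. Only 8 members passed the filter on low counts, 4 of them with a log2 fold change above 0, and the median was -0.04, with 0.12 over the 352 tested miRNAs. With edgeR, 0 of the 8 members had an adjusted p under 0.05, as did 0% of all miRNAs, and 0 had an unadjusted p under 0.05, where 5 of all 352 miRNAs did. DESeq2 gave 0 members as well. The criteria of the study were met by 0 of the 8 members and by 1.42% of all tested miRNAs. The smallest p was that of rno-miR-410-3p, with a log2 fold change of -0.64 (SE 0.57), followed by rno-miR-379-5p with -1.26 (SE 1.44) and rno-miR-541-5p with 0.22 (SE 0.53). An exact two-sided permutation test on log2 CPM gave p 0.0952 for rno-miR-410-3p, 0.333 for rno-miR-379-5p and 0.746 for rno-miR-541-5p. On the mean of log2 CPM, rno-miR-541-5p was lower in the GLLP group by 0.07, against the sign of its fitted value. Within libraries 3 to 7, the summed level of the cluster was between 102 and 168 CPM in 3 CTR libraries and between 52.7 and 65.6 CPM in 2 GLLP libraries. Within libraries 21 to 24 it was between 174 and 178 CPM in 2 CTR libraries and between 133 and 152 CPM in 2 GLLP libraries. The GLLP libraries were thus the lower in both sets after TMM scaling, while as shares of miRNA counts the diets overlapped. In libraries 3 to 7, however, both GLLP libraries and the lowest CTR library, at 102 CPM, were those of high snoRNA share. The part of that share in the difference between diets was not tested. With SE values between 0.53 and 1.44, a difference of the size seen at PND 21 was not detectable for these members.

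Whether the difference between diets changed with age was tested as an interaction in the fit of all 17 libraries, and 0 of the 44 members passed, as did 0% of all 467 miRNAs (edgeR, lowest adjusted p among the members 0.591), and DESeq2 gave 0 members too. At an unadjusted p under 0.05 there were 10 members, all with a negative value, where 5.78% of all tested miRNAs had such a value. This count is a description, since most members passed the filter through PND 21. At PND 540 only 11 members had at least 10 counts in 4 or more libraries. The smallest p was that of rno-miR-539-3p, with an interaction of -5.18 on the log2 scale (SE 1.54). It stood at 2.05 to 2.79 CPM in the CTR group and at 2.62 to 7.78 CPM in the GLLP group at PND 21. At PND 540 it was read in 3 of the 5 CTR libraries, with at most 3 reads, and in none of the GLLP libraries. For rno-miR-410-3p the interaction was -2.06 (SE 0.67), and it is the only one of the 3 smallest that rests on more than a few reads at PND 540. For rno-miR-666-5p it was -3.86 (SE 1.59), with 2 reads in all at PND 540.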

How the data were processed

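Small RNA libraries (TruSeq Small RNA kit, HiSeq2500) of the VP were analysed, 17 in all. The authors trimmed adapters, kept reads with a Phred score of at least 20, aligned them to Rnor_6.0 with STAR, counted reads by genomic locus on the OASIS platform and deposited whole-number counts per small RNA species without normalization. Groups and replicate numbers were taken from the labels. Members and lists were chosen with earlier results of these data known.

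Counts of rat miRNAs were scaled by TMM with the total rat miRNA count as library size and filtered with the default filter of edgeR 4.0.16 in R 4.3.3. The quasi-likelihood F test was applied, with Benjamini-Hochberg adjustment over all tested miRNAs. Ages and the interaction were tested in a fit of 17 libraries with 4 groups, and diets in a fit for each age. Levels are CPM, and SE is the absolute log2 fold change divided by the square root of F. Permutation tests were exact and two-sided, on log2 CPM plus 2 (scipy 1.17.1). The floor was 3 counts in each library. Fits of DESeq2 1.42.0 and limma 3.58.1, other scalings, filters and a replicate block, and fits leaving out libraries, were alternatives. The fits were tested on simulated data. A planned test of the balance of 5p and 3p arms made too many false calls on simulated counts and was not run. Depth was 6262564 to 28642435 counts. Plots were made in Python 3.11.15 (matplotlib 3.10.9).

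Members were named by rule: the 10 with the highest mean CPM, the 10 with the smallest p for age, the 3 with the smallest p for diet at each age and for the interaction, and the 3 proximal miRNAs with the highest mean CPM and all of the other imprinted loci. rno-miR-667-3p, rno-miR-485-3p, rno-miR-206-3p and members named for their sequence were added once their values had been seen. The animals were separate, but nothing in the sources used here says how RNA was processed in batches.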

Additional observations from a re-analysis of the deposited data

Results flagged for a closer look

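In groups of 4 or 5 libraries, the named members, the cluster share, the number of members detected and the summed proximal list were searched for a library far from the others by Dixon's ratio (gap to the nearest library over the range). Of 84 groups examined, 7 held such a library, where chance gives about 4.2. At PND 21, CTR replicate 3 was high for rno-miR-134-5p (ratio 0.903, 46.1 CPM) and low for rno-miR-377-3p (0.839, 1.43 CPM), and CTR replicate 1 was high for rno-miR-409a-5p (0.938, 83.8 CPM). At PND 540, GLLP replicate 1, a library of high snoRNA share, was high for rno-miR-134-5p (0.892, 6.24 CPM), and CTR replicate 1, another of these, was high for rno-miR-409b (0.812, 10.9 CPM). For rno-miR-299a-5p in GLLP replicate 4 and rno-miR-377-3p in CTR replicate 3 the ratio was 1, since a single read stood against 0 in the other libraries of the group.

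The change of the diet difference from PND 21 to PND 540 had an unadjusted p under 0.05 for 10 members, of which the 3 with the smallest p were rno-miR-539-3p (interaction -5.18 on the log2 scale), rno-miR-410-3p (-2.06) and rno-miR-666-5p (-3.86). The adjusted p values were 0.591, 0.703 and 0.703 (edgeR), so none passed over all miRNAs. At PND 540 rno-miR-539-3p had 7 reads in all and rno-miR-666-5p had 2. The count of 10 members is a description, since most members passed the filter through PND 21.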

How the results depend on the processing

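The count of members lower at PND 540 stayed between 42 and 54 in all settings but those with a stricter filter, which left fewer members to test: 33 of 34 with a mean of 20 counts, and 10 of 11 with a mean of at least 10 counts at each age. It was between 42 and 44 when a library was left out. Except with a mean of at least 10 counts at each age, most members passed the filter through PND 21, so these counts are descriptions. The median log2 fold change between ages lay between -6.26 and -4.14 for the members and between -1.28 and 0.39 for all miRNAs, so scaling moved the sign of the latter but not of the former. At PND 21 the count of members at an adjusted p under 0.05 was 0 in every setting but DESeq2, which gave 8. The median over the members stayed between 0.61 and 0.86. The members that met the study's criteria numbered 2 in a fit of all 17 libraries and between 17 and 29 when a library was left out. Those with an unadjusted p under 0.05 numbered 3 in that fit and between 18 and 31 when a library was left out. At PND 540 the study's criteria were met by 4 of 44 members in the fit of all 17 libraries. With library-number set as a model term they were met by 1, rno-miR-379-5p. The main fit at this age tested 8 members. The log2 fold change of rno-miR-379-5p ranged from -3.28 without GLLP replicate 4 to 0.31 without CTR replicate 4, and that of rno-miR-541-5p to -0.13 in the fit of all 17 libraries. For the interaction, members at an unadjusted p under 0.05 numbered 5 with RLE size factors, with no scaling factor, with TMM without the members and with no filter, 6 with TMM over all small RNA species and with a mean of 20 counts, 3 with the replicate block and between 4 and 10 when a library was left out. In the main fits 18.9% of all tested miRNAs met the study's criteria at PND 21 and 1.42% at PND 540. For the other settings, apart from DESeq2 at PND 21, such shares are not given here. The counts of members by diet and by interaction under them are therefore descriptions. With at least 10 counts asked for, the median number of members detected was 44.5 at PND 21 and 10 at PND 540. With the replicate number as a block, 42 members were lower at PND 540 and 0 members passed for diet at either age. Same-numbered libraries of the diets did not deviate together at PND 21 (correlations between -0.294 and 0.255) and did so unevenly at PND 540 (between -0.427 and 0.834), so the numbers were not taken as pairs. The alternatives for the balance of arms were not run, since that test was not used. Depth limits the members at PND 540, where most had fewer than 10 counts in a library.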

Other observations

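The count tables also list snoRNAs named SNORD113 and SNORD114, families whose arrays lie in the same imprinted domain. Their reads were looked at after the values of the cluster were known. Per 1000000 miRNA counts, they numbered 182, 82.3, 55.7 and 133 in the CTR group and 129, 103, 1063 and 207 in the GLLP group at PND 21. At PND 540 they numbered 13.4, 6.97, 1.71, 5.52 and 0.530 in the CTR group and 11.9, 9.35, 3.33 and 2.70 in the GLLP group. Every PND 21 library was above every PND 540 library, and the diet groups overlapped at both ages. The highest value came from GLLP replicate 3 of PND 21, the library with the largest snoRNA and snRNA share at that age. The snoRNA entries belong to repeated families, so reads can be shared between copies.

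The entry rno-miR-6331, which RefSeq places within the span of the cluster but which the list of members does not hold, had 1125 reads. It had between 41 and 390 reads in the libraries of PND 21 and between 0 and 3 in those of PND 540.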
